A study of Mus musculus with 6 samples.

Results

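Peroxisomes are small organelles with 1 membrane that shorten very long and branched fatty acids, break down hydrogen peroxide and carry out the first steps of ether lipid synthesis. The 30 genes described here were chosen by function, as peroxisome biogenesis factors and peroxisomal lipid enzymes, and taken from the deposited table by gene symbol. All 30 were among its 35275 genes. They comprise 13 peroxins (Pex genes), which build the organelle, and 17 genes of matrix enzymes, membrane-bound enzymes and ABC transporters. The mRNA was measured by RNA sequencing in epididymal fat, a visceral depot. The male mice, of strain C57BL/6, were put on chow with 60% fat when 2 months old, ate it for 10 weeks and were 4.5 months old when sampled. The 3 control samples carried the genotype Tfrcfl/fl, with loxP sites around part of the transferrin receptor gene, and the 3 knockout samples the genotype TfrcAKO, known as its deletion in adipocytes; the Cre line is not given in the sources used here. Both groups ate the same diet, so the comparison is of genotype on that diet only. Whether the 6 samples are 6 animals is not said in the labels, and p-values cover no more than the spread among the samples.

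Peroxins act in stages. Pex3, Pex16 and Pex19 insert membrane proteins; the receptors Pex5 and Pex7 bind matrix proteins and dock at Pex13 and Pex14; a ubiquitin ligase with the subunits Pex2 and Pex10 and an export machinery with Pex6 and Pex26 return the receptors to the cytosol; and Pex11 proteins shape the membrane before division. In white fat, peroxisomes multiply when preadipocytes become adipocytes, and many of their enzyme genes are targets of the PPAR nuclear receptors. Iron enzymes among the members are catalase, which carries heme, and phytanoyl-CoA hydroxylase (Phyh), an iron- and 2-oxoglutarate-dependent dioxygenase.

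Most of the genes were more abundant in knockout fat. Of the 30 members, 23 rose, 2 fell and 5 did not pass the test (limma on log2(FPKM + 0.5), adjusted p under 0.05), and the median log2 fold change was 0.59. Over all 14383 genes tested, 21.9% rose and 21.6% fell, 43.5% in either direction, and the median was -0.03. The unit FPKM counts fragments per 1000 bases of a gene in a sample scaled to 1000000 gene reads. All 30 members passed the filter on low values. The 2 groups did not overlap for 28 members, against 60.1% of all tested genes: every knockout sample lay above every control sample for 25 (29.1% of all) and below for 3 (31.0% of all). Among peroxins 9 of 13 rose and none fell, with a median of 0.57 and a highest value of 0.94 (Pex11a). Among enzymes and ABC transporters 14 of 17 rose and 2 fell, with a median of 0.61 and a span from -0.53 (Agps) to 1.68 (Ehhadh). The medians of the peroxins and of the enzymes thus lay close together, and the enzymes spread wider; the difference between the 2 groups was not tested. Across leave-one-out fits the number of members higher ranged from 16 (without control replicate 3) to 23, and over all genes the count fell from 6253 to 3336 without control replicate 2 and to 3421 without control replicate 3.

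**Figure D1:**
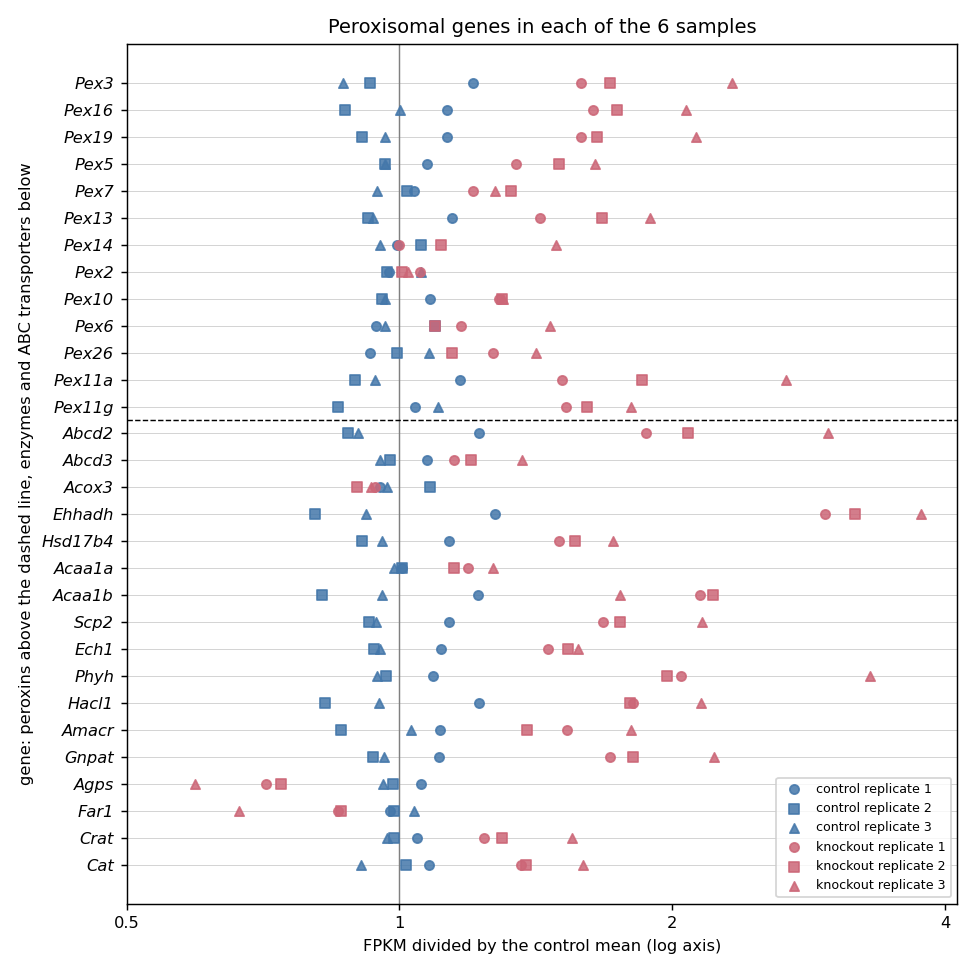
Each row is a gene and each point a sample, at its FPKM divided by the control mean of that gene on a log axis; blue marks control and red knockout, and the symbol shape gives the replicate number. Knockout points lie to the right of all control points for 25 of 30 genes and to the left for Acox3, Agps and Far1.

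The depth was 25252839 to 30650624 gene-assigned reads per sample, at which 3 reads on a gene of 2 kb make 0.0489 to 0.0594 FPKM. The members lay far above that level, with a lowest control mean of 2.75 FPKM (Pex11g). The part of counting error in the spread of the least abundant members was not tested. Tfrc itself was at 11.1, 13.2 and 11.9 FPKM in control and at 7.10, 8.27 and 9.50 FPKM in knockout samples, a fall of 0.52 on the log2 scale (limma adjusted p = 0.0147). Knockout replicate 3 stood apart on the first principal component, at 60.9 against 21.7 and 25.2 for the other knockout samples. It held the highest value of all 6 samples for 21 of the 23 genes that rose and the lowest for both that fell. Without it the same calls were made for all 30 members, with medians of 0.50 for peroxins and 0.58 for enzymes and ABC transporters. Without both this library and control replicate 2, 21 rose and 1 fell.

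Markers of cell types moved with the groups too; over all tested genes 21.9% rose and 21.6% fell. Of 12 mature adipocyte markers 11 rose, with a median of 1.52, and their summed level ranged from 8611 to 12036 FPKM in control and from 20698 to 27992 FPKM in knockout samples. Of 12 macrophage markers 11 fell, with a median of -1.43, and their sum ranged from 4935 to 5890 FPKM in control and from 1155 to 2613 FPKM in knockout samples. All 6 endothelial markers rose (median 1.17), from sums of 82.9 to 93.2 FPKM to sums of 170.0 to 256 FPKM. Of 5 mesothelial markers 4 rose (median 0.75), with sums of 58.0 to 61.4 FPKM in control and 92.6 to 113 FPKM in knockout samples. Of 6 progenitor and fibroblast markers 1 fell, Col1a1, a collagen gene, and none rose (median -0.29), with sums of 1140 to 1200 FPKM in control and 665 to 1074 FPKM in knockout samples. No marker of these 5 lists was at 0. Adipoq, the adiponectin gene that defines adipocytes, was present in every sample, at 326 FPKM or more, so the labelled tissue matched its marker. Knockout replicate 3 had the highest adipocyte sum and the lowest macrophage sum. In whole tissue, more cells of a type and more mRNA per cell cannot be told apart, and the part of these markers in the results on peroxisomal genes was not tested. Liver transcripts were present at low and uneven levels, with Alb (albumin) between 1.07 and 81.9 FPKM, highest in knockout replicate 1. Serpina1a, another liver transcript, rose from 1.08, 0.583 and 1.65 FPKM to 4.62, 3.40 and 2.43 FPKM (1.33 ± 0.30, limma adjusted p = 0.0139). The epididymis genes Defb21 and Lcn5 were at 0 in all 6 samples.

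**Figure D2:**
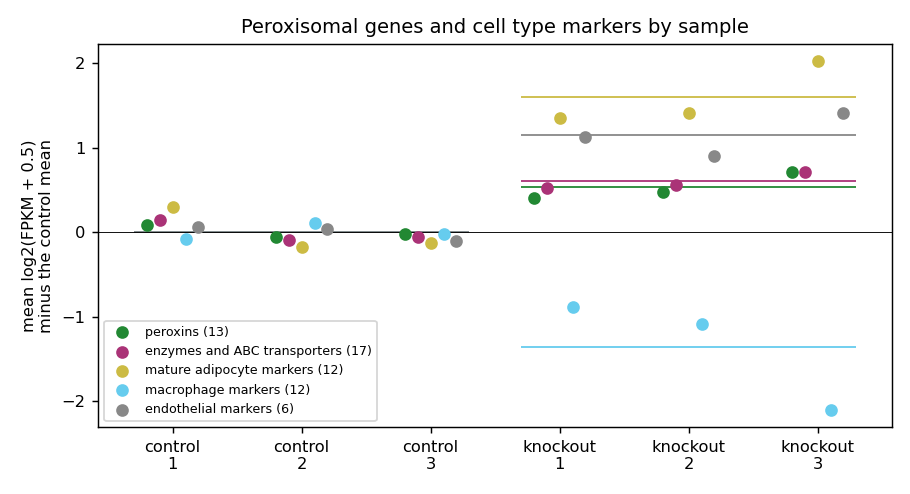
The mean log2(FPKM + 0.5) of each gene list in each sample is plotted as its difference from the control mean, with points for samples and lines for group means. In knockout samples the peroxins lie 0.40 to 0.71 and the enzymes and transporters 0.53 to 0.72 above the control mean, the adipocyte markers 1.35 to 2.02 above it and the macrophage markers 0.89 to 2.10 below it.

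The 3 peroxins of membrane protein insertion rose by nearly equal amounts. Pex16, which receives Pex3 at the endoplasmic reticulum, was at 49.3, 38.0 and 43.7 FPKM in control samples and at 71.5, 75.9 and 90.6 FPKM in knockout samples (values are in the order of replicates 1, 2 and 3 here and below). Its log2 fold change was 0.85 ± 0.13, where ± gives the limma standard error (limma adjusted p = 0.00514). Pex19, the cytosolic chaperone of membrane proteins, was at 48.3, 38.9 and 41.3 FPKM in control and 67.9, 70.7 and 91.0 FPKM in knockout samples (0.82 ± 0.14, limma adjusted p = 0.00624). The lowest knockout sample of each gene exceeded its highest control sample. Pex3, the membrane anchor for Pex19, was less abundant, at 7.51, 5.79 and 5.40 FPKM in control and 9.88, 10.6 and 14.5 FPKM in knockout samples (0.85 ± 0.17, limma adjusted p = 0.0107). The table length of Pex3, 2959 bases, is that of a retained-intron transcript, against 2129 bases for the longest coding one. This lowers its FPKM relative to other genes in all samples alike. Pex16 (chromosome 2, 92374676 to 92381217) and Pex19 (chromosome 1, 172126755 to 172136493; mm10 throughout) were the 2 most abundant peroxins in control fat.

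The import receptors rose as well. Pex5, which binds the C-terminal signal of most matrix enzymes, went from 23.8, 21.4 and 21.4 FPKM to 29.8, 33.2 and 36.4 FPKM, a log2 fold change of 0.57 ± 0.09 (limma adjusted p = 0.00600). Pex7, which binds the N-terminal signal used by few enzymes, among them Phyh, Agps and the thiolases, had means of 11.8 ± 0.583 FPKM in control and 15.0 ± 0.730 FPKM in knockout fat (SD, n = 3 each), and its log2 fold change was 0.33 ± 0.07 (limma adjusted p = 0.0124; 0.0116 to 0.0556 over the 14 alternatives, the call being lost without control replicate 3). At the docking site, Pex13 rose from 13.9 ± 1.71 to 23.1 ± 3.17 FPKM (SD, n = 3 per group; 0.71 ± 0.13, limma adjusted p = 0.00754), while its partner Pex14 was at 3.54, 3.76 and 3.39 FPKM in control and 3.56, 3.96 and 5.31 FPKM in knockout samples. The Pex14 groups overlapped, and its log2 fold change of 0.22 had a 95% interval from -0.13 to 0.56 and a limma adjusted p of 0.257. That change was 0.07 without knockout replicate 3 and 0.33 without knockout replicate 1. Pex13 shares 286 bases with Pus10 on the opposite strand, and the counting is not stated to have used strand.

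The genes of receptor recycling had the lowest medians among the peroxin roles, 0.18 for the ubiquitin ligase and 0.30 for receptor export, each over 2 genes. By single gene they did not stand apart: Pex14 of the docking site, at 0.22, was below Pex10, Pex6 and Pex26. Pex2, a subunit of the ubiquitin ligase, was at 15.8, 15.7 and 17.1 FPKM in control and 17.1, 16.3 and 16.6 FPKM in knockout samples, with overlapping groups, a log2 fold change of 0.04 (95% interval -0.12 to 0.20) and a limma adjusted p of 0.663. Pex10, another ligase subunit, rose from 3.12 ± 0.215 to 4.04 ± 0.0249 FPKM (SD, n = 3 per group), with a change of 0.33 ± 0.09 (limma adjusted p = 0.0233). That call was lost without control replicate 2 (0.0810), control replicate 3 (0.0861), knockout replicate 1 (0.0521) or knockout replicate 2 (0.0528), without both knockout replicate 3 and control replicate 2 (0.0920) and with the replicate block (0.0807), and the adjusted p ran from 0.0215 to 0.0920 over all alternatives. Pex6, the ATPase that pulls receptors out, and Pex26, its membrane anchor, each had a log2 fold change of 0.30, with limma adjusted p values of 0.0893 and 0.0603. Their knockout samples all lay above their control samples, at 18.4 to 24.7 against 15.9 to 18.4 FPKM for Pex6, where the nearest samples of the groups nearly touched, and at 3.40 to 4.21 against 2.76 to 3.21 FPKM for Pex26. Without knockout replicate 3 the change of Pex6 was 0.18. Pex26 passed the test without knockout replicate 2 (limma adjusted p = 0.0481) and with limma-voom (adjusted p = 0.0456), and reached 0.213 in another of the alternatives.

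Both division genes rose. Pex11a, the form induced by peroxisome proliferators, went from 10.8, 8.27 and 8.70 FPKM to 14.0, 17.2 and 24.7 FPKM, a log2 fold change of 0.94 ± 0.21 (limma adjusted p = 0.0132). The call was lost without control replicate 2 (limma adjusted p = 0.0552) or control replicate 3 (0.0518), in a range from 0.00606 to 0.0552. Pex11g went from 2.75 ± 0.356 to 4.53 ± 0.383 FPKM (SD, n = 3 per group), with a change of 0.63 ± 0.12 (limma adjusted p = 0.00794). Knockout replicate 3 set much of the spread of Pex11a, and the change was smallest, 0.65, without both that library and control replicate 2.

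**Figure D3:**
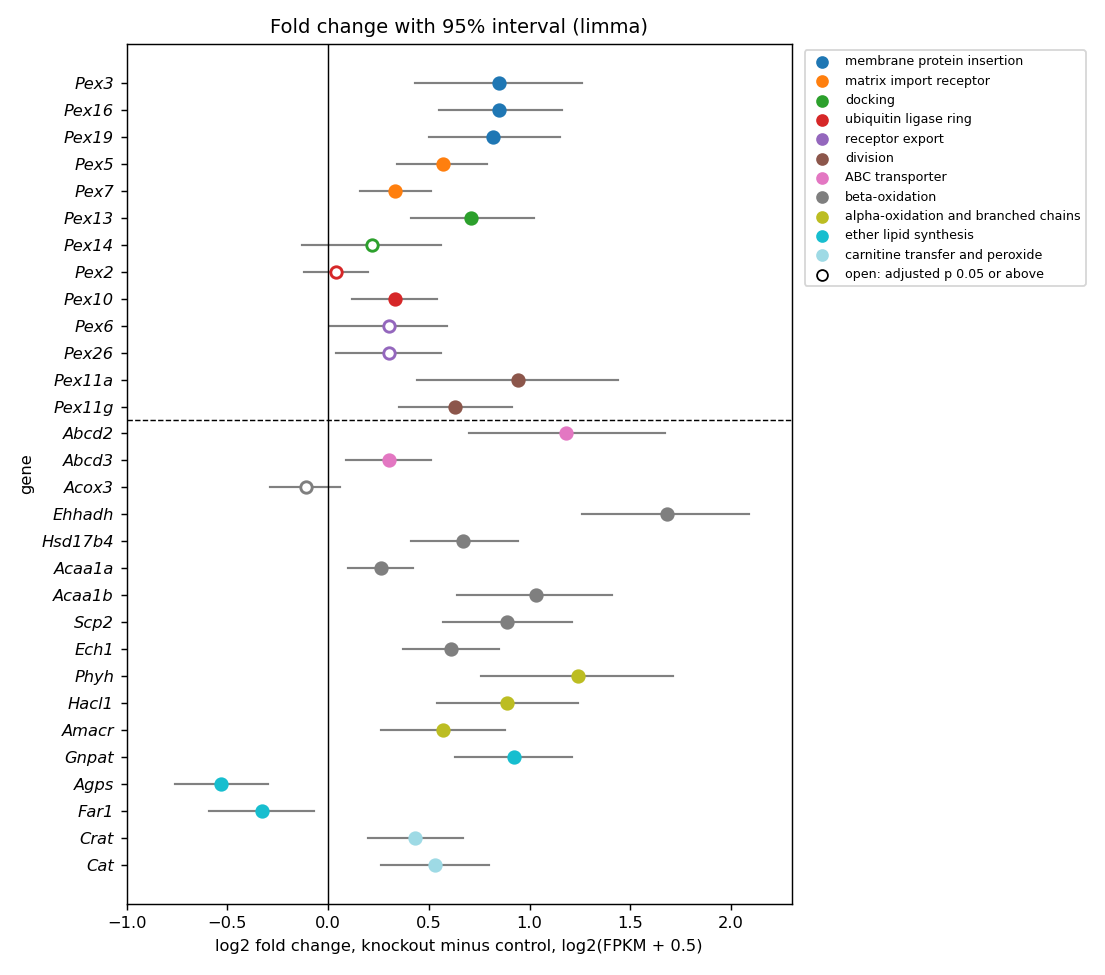
Points give the log2 fold change of each gene, knockout minus control, on the log2(FPKM + 0.5) scale, bars its 95% interval from limma, and colours its role; peroxins stand above the dashed line. Open points did not pass the test: Pex14, Pex2, Pex6, Pex26 and Acox3. Ehhadh lies highest, at 1.68, and Agps lowest, at -0.53.

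The ABC transporters carry fatty acyl-CoA into the peroxisome. Abcd2, the form for very long and polyunsaturated chains that is abundant in fat, was at 38.1, 27.2 and 28.0 FPKM in control and 58.1, 64.7 and 92.4 FPKM in knockout samples, a log2 fold change of 1.18 ± 0.20 (limma adjusted p = 0.00675). Abcd3, which carries branched-chain and dicarboxylic acyl-CoA, went from 24.3 ± 1.53 to 30.1 ± 2.76 FPKM (SD, n = 3 per group), with a change of 0.30 ± 0.09 (limma adjusted p = 0.0334). That call was lost without control replicate 2 (0.106), control replicate 3 (0.116) or knockout replicate 2 (0.0623), without both knockout replicate 3 and control replicate 2 (0.107), with median-of-ratios scaling (0.0521), with no filter (0.0605) and with the replicate block (0.0960), and the adjusted p ran from 0.0315 to 0.116. The ratio of Abcd2 to Abcd3 was 1.15 to 1.46 in control and 2.08 to 2.78 in knockout samples; like the other ratios given here it was chosen after the values were seen and is a description.

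In β-oxidation 6 of 7 members rose, against 21.9% of all tested genes. Ehhadh, the bifunctional hydratase and dehydrogenase of the classical pathway, had the largest change of the 30 genes. It was at 9.76, 6.17 and 7.03 FPKM in control and 22.5, 24.3 and 28.8 FPKM in knockout samples, a log2 fold change of 1.68 ± 0.17 (limma adjusted p = 0.00363), and its knockout mean was 3.30 times its control mean. Hsd17b4, the bifunctional enzyme of the branched-chain pathway, was far more abundant, at 98.2 ± 11.5 FPKM in control and 156 ± 11.3 FPKM in knockout fat (SD, n = 3 each; 0.67 ± 0.11, limma adjusted p = 0.00598). Scp2, which encodes a branched-chain thiolase and sterol carrier protein, went from 145, 119 and 121 FPKM to 215, 225 and 277 FPKM (0.89 ± 0.13, limma adjusted p = 0.00507), and Ech1, a dienoyl-CoA isomerase also found in mitochondria, from 160 ± 15.4 to 243 ± 9.28 FPKM (SD, n = 3 per group; 0.61 ± 0.10, limma adjusted p = 0.00600). Part of the Scp2 interval is shared with Podn (17.5 FPKM on average) on the same strand, and a pseudogene, Cd63-ps (1.86 FPKM), lies inside Hsd17b4. Acox3, an oxidase of branched-chain acyl-CoA, was the exception, at 20.1, 22.8 and 20.5 FPKM in control and 19.9, 19.0 and 19.7 FPKM in knockout samples. Its knockout samples were all slightly below its control samples, and the log2 fold change of -0.11 had a 95% interval from -0.29 to 0.06 and a limma adjusted p of 0.251. It was -0.06 without control replicate 2.

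The start of the Ehhadh gene is shown because Ehhadh changed most and is a textbook target of PPARα. These are the 150 bases before its start on chr16:21787835-21787984, minus strand, from RefSeq on GRCm38.p6, written 5′ to 3′ with GGGCGG and its reverse complement in capitals:
Ehhadh: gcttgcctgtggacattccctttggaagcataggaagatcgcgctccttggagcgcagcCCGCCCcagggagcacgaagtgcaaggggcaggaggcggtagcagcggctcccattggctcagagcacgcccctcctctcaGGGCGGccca
Promoters of 24 of the 30 members, from 250 bases before to 50 after the start, matched the RefSeq table. The PPAR response element AGGTCANAGGTCA, searched on both strands, was in 0 of the 24 and in 0.0396% of all 32851 promoters, and the single site AGGTCA was in 4 (Cat, Pex11g, Phyh and Scp2), or 16.7%, against 16.3% of all. The response element contains AGGTCA, so the 2 searches overlap. GGGCGG, the GC box, was in 19 of the 24 (79.2%) against 35.7% of all promoters; the median GC content of the 150 bases before the start was 63.0% and 54.0%. The sets are unlike: members have only the promoter nearest to the gene start, while the comparison holds every promoter, whether or not its gene is expressed in fat. A comparison with expressed genes only was not made. These are counts of exact letters in a short window, and variant elements or elements further away were not searched. The full response element is so rare among all promoters that its absence from 24 says nothing about PPAR control.

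The thiolase pair Acaa1a and Acaa1b performs the last step of straight-chain β-oxidation and shows how far near-identical copies can be told apart. Their coding sequences (GENCODE M21, each 1275 bases) are 96.5% identical, with 44 differing positions and a longest identical run of 327 bases. The 90 coding bases with the most differences, positions 460 to 549 counted from the start codon, are shown with the 13 differing bases in capitals:
Acaa1a: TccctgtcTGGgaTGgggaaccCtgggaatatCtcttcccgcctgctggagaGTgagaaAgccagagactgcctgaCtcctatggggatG
Acaa1b: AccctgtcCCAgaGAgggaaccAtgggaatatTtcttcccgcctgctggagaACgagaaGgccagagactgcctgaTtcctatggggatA
Reads outside such stretches can fit both genes, so the split between them is uncertain. Acaa1b (chromosome 9, 119148023 to 119157093) went from 35.2, 23.7 and 27.6 FPKM to 61.9, 63.8 and 50.4 FPKM, a log2 fold change of 1.03 ± 0.16 (limma adjusted p = 0.00550). Acaa1a (chromosome 9, 119339676 to 119350299) went from 34.6, 34.6 and 33.8 FPKM to 40.8, 39.4 and 43.5 FPKM, a change of 0.26 ± 0.07 (limma adjusted p = 0.0205). The call for Acaa1a was lost without control replicate 1 (0.0573), 2 (0.0661) or 3 (0.0813) and with the replicate block (0.0842), in a range from 0.0190 to 0.0842. Unlike most members, Acaa1b was lowest in knockout replicate 3 among the knockout samples, and the ratio of Acaa1b to Acaa1a was 0.684 to 1.02 in control and 1.16 to 1.62 in knockout samples. The Acaa1a interval also overlaps Myd88 (11.1 FPKM) over 1736 bases and Slc22a14 (0.997 FPKM) over 10624 bases, both on the opposite strand. Its table length of 3668 bases is that of a retained-intron transcript, against 1762 bases for the longest coding one, which lowers its FPKM relative to Acaa1b in all samples alike.

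All 3 genes for α-oxidation and branched chains rose, against 21.9% of all tested genes. Phyh, the iron-dependent hydroxylase that starts the breakdown of phytanic acid, went from 33.1, 29.3 and 28.7 FPKM to 62.1, 59.9 and 100.2 FPKM, a log2 fold change of 1.24 ± 0.20 (limma adjusted p = 0.00576). Knockout replicate 3 was far above the other knockout samples, which were themselves well above every control sample. Hacl1, the lyase of the next step, rose from 5.12 ± 1.04 to 9.82 ± 1.03 FPKM (SD, n = 3 per group; 0.89 ± 0.15, limma adjusted p = 0.00607). Amacr, the racemase that prepares branched chains for β-oxidation, rose from 3.05 ± 0.386 to 4.79 ± 0.650 FPKM (SD, n = 3 per group; 0.57 ± 0.13, limma adjusted p = 0.0139; 0.0130 to 0.0523 over the alternatives, highest without control replicate 2). Hacl1 overlaps Btd (12.4 FPKM) by 259 bases on the opposite strand.

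Catalase and carnitine acetyltransferase rose moderately. Cat, the heme enzyme that splits hydrogen peroxide and the most abundant of the 30 mRNAs in both groups, was at 208, 197 and 175 FPKM in control and 263, 267 and 309 FPKM in knockout samples, a log2 fold change of 0.53 ± 0.11 (limma adjusted p = 0.0113; 0.00551 to 0.0520 over the alternatives, highest without control replicate 3). Crat, which moves acetyl groups onto carnitine for export, rose from 37.1 ± 1.50 to 50.6 ± 6.12 FPKM (SD, n = 3 per group; 0.43 ± 0.10, limma adjusted p = 0.0137). The Crat call was lost without control replicate 2 (0.0552) or control replicate 3 (0.0577), and its lowest adjusted p was 0.00648. Crat shares 59 bases with Dolpp1 on the opposite strand, and Pex3, described above, 249 bases with Adat2.

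Ether lipid synthesis was the only one of the 11 roles into which the members were sorted that held genes called in opposite directions. Gnpat acylates dihydroxyacetone phosphate, Agps exchanges that acyl chain for a fatty alcohol, and Far1 makes the alcohol. Gnpat was at 40.7, 34.4 and 35.4 FPKM in control and 62.9, 66.6 and 81.9 FPKM in knockout samples, a log2 fold change of 0.92 ± 0.12 (limma adjusted p = 0.00402). Agps went from 12.3, 11.5 and 11.2 FPKM down to 8.32, 8.64 and 6.95 FPKM, a change of -0.53 ± 0.10 (limma adjusted p = 0.00788). The groups of both genes were fully separate, in opposite directions. Far1 went from 14.9, 15.1 and 15.9 FPKM to 13.1, 13.2 and 10.2 FPKM, a change of -0.33 ± 0.11 with a limma adjusted p of 0.0475. The Far1 call was lost without control replicate 1 (0.0961), 2 (0.114) or 3 (0.140), with no filter (0.0848), with the replicate block (0.0952) and without both knockout replicate 3 and control replicate 2 (0.0730), with a lowest value of 0.0330, while that of Agps was kept in all 14 alternatives (adjusted p 0.00398 to 0.0359). Without knockout replicate 3 the change of Far1 was -0.21 and its call was kept (limma adjusted p = 0.0407). The ratio of Gnpat to Agps was 3.30, 2.99 and 3.16 in control and 7.56, 7.71 and 11.8 in knockout samples.

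**Figure D4:**
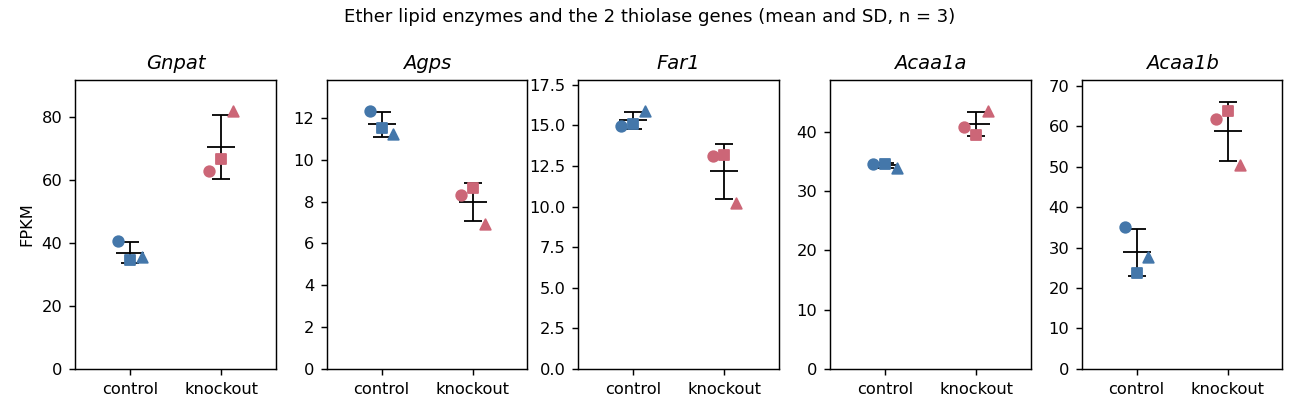
Points are the FPKM of each sample (circle, square and triangle for replicates 1, 2 and 3), and black marks the mean and SD of 3 samples, on axes that start at 0. Gnpat is higher in knockout samples while Agps and Far1 are lower, and the Acaa1b groups lie at 23.7 to 35.2 and 50.4 to 63.8 FPKM, those of Acaa1a at 33.8 to 34.6 and 39.4 to 43.5 FPKM.

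The stretches before the starts of the 3 ether lipid genes are shown because their mRNAs moved in opposite directions; all are 150 bases on the plus strand from RefSeq on GRCm38.p6, with GGGCGG and its reverse complement in capitals, at chr8:124862883-124863032 for Gnpat, chr2:75832027-75832176 for Agps and chr7:113513684-113513833 for Far1:
Gnpat: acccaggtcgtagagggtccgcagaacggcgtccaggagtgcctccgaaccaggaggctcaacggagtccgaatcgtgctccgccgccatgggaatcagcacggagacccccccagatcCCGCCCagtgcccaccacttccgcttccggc
Agps: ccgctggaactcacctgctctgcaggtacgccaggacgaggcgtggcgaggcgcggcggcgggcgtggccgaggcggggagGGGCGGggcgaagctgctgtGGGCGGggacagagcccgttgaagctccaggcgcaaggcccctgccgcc
Far1: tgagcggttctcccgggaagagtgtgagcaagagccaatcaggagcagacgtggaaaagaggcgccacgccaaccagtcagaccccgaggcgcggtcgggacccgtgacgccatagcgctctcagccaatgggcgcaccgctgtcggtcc
GC content was 67.3% for Gnpat, 76.0% for Agps and 65.3% for Far1. In these 150 bases the GC box occurred 1 time for Gnpat, 2 times for Agps and 0 times for Far1. AGGTCA was in none of the 3. In the longer promoter window searched above, the GC box was found for all 3 genes, Far1 included. The 0 for Far1 thus holds for the shorter stretch only.

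Later steps that finish plasmalogens take place outside the peroxisome. Of 10 such genes and related phospholipid enzymes 5 rose and 1 fell, with a median of 0.23, against 21.9% and 21.6% of all tested genes. The one that fell, Tmem189, the desaturase that makes the vinyl ether bond, went from 46.3, 56.1 and 53.3 FPKM to 32.8, 29.3 and 28.1 FPKM (-0.78 ± 0.10, limma adjusted p = 0.00393); 908 bases of its interval overlap Cebpb and 5589 bases Gm14320 on the opposite strand. Chpt1, a cholinephosphotransferase, rose from 98.5, 67.0 and 72.9 FPKM to 193, 210 and 302 FPKM (1.55 ± 0.21, limma adjusted p = 0.00426); 13668 bases of its interval overlap Sycp3 on the opposite strand. Selenoi, the ethanolaminephosphotransferase, had a log2 fold change of 0.03 ± 0.07 (limma adjusted p = 0.774).

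Further peroxisomal genes were taken from lists drawn up by function, with earlier results of these data known; over all tested genes 21.9% rose and 21.6% fell. Of 43 further enzymes 31 could be tested; 17 rose and 3 fell (Acot8, Hsd17b11 and Lacc1, named after their values were seen), with a median of 0.49, and the list also holds enzymes that work elsewhere, such as the mitochondrial Acsf3. Ephx2, an epoxide hydrolase, rose by 1.48 ± 0.20, Hsdl2 by 0.89 ± 0.11, Dhrs4, a retinal reductase, by 0.80 ± 0.09 and Eci2, an enoyl-CoA isomerase, by 0.61 ± 0.08 (limma adjusted p 0.00363 to 0.00410); Eci2 overlaps Gm16984 (0.979 FPKM) on the opposite strand. Of 17 tested peroxins and membrane proteins outside the 30 genes, 7 rose and 2 fell, with a median of 0.26. This list too holds proteins that work partly or wholly elsewhere, so the counts are not of peroxisomal genes alone. Pxmp4 rose by 0.91 ± 0.13, Tmem135 by 0.72 ± 0.12 and Slc25a17, the peroxisomal cofactor carrier, by 0.32 ± 0.07 (limma adjusted p 0.00451, 0.00632 and 0.0109). The general fission genes Dnm1l and Fis1 had log2 fold changes of 0.03 and 0.09 and limma adjusted p values of 0.744 and 0.351.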

How the data were processed

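Total RNA of 6 epididymal fat samples was made into libraries with the NEBNext Ultra kit, per the labels' protocols. CASAVA, FastQC, STAR 2.5 and HTSeq 0.6.1 and the build mm10 are named in the submitters' processing notes; the strand setting and the annotation release are not stated there. The deposited table gives FPKM per gene and sample, per the file headers, and the authors' gene length in bases, its other numeric column. Multiplied by kilobases the values of a sample added up to 1000000, and 100% of values above 0 were whole multiples of 1 read within 0.01, which gave reads per gene (25252839 to 30650624 per sample). In 24 of 30 members the length equalled that of the longest GENCODE M21 transcript. For 6 members (Pex3, Pex14, Pex10, Pex6, Acaa1a and Hacl1) that longest transcript was not protein coding. This lowers their FPKM relative to other genes in all samples alike.

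The 14383 genes that reached 0.5 FPKM in 3 samples were fitted on log2(FPKM + 0.5) with limma 3.58.1 (R 4.3.3), genotype as the coefficient, trend and robust moderation, two-sided, with Benjamini-Hochberg adjustment over all of them; fold changes on this scale understate low genes. Errors after ± are SE for fold changes and SD for means. The procedure was tested on simulated reads with independent replicates and few changed genes. These data are unlike that, so the simulation does not give the error rate here. The members and lists were chosen with earlier results of these data known. Named are Tfrc, the members and, per further list, genes drawn from up to 4 called ones (those of smallest p) or else the 2 most abundant. Not all genes that this rule gave are named. Others are marked or complete a pathway step, and some of them, such as Selenoi, Dnm1l, Fis1 and Ppara, were not called. The alternatives were pseudocounts of 0.1 and 1, a filter at 1 FPKM, no filter, a replicate block, median-of-ratios scaling, limma-voom on the reads and each sample left out; leaving out knockout replicate 3 with control replicate 2 was chosen after seeing the data. Some genes of these lists are counted but not reported here by name. Of 151 list entries 150 were found by symbol or synonym. Sequences are from RefSeq (GRCm38.p6) and GENCODE M21, read with Python 3.11.15 and Biopython 1.88.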

Additional observations from a re-analysis of the deposited data

How the results depend on the processing

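The direction of all 30 fold changes was the same in the 14 alternatives run. Pseudocounts of 0.1 and 1 and a filter at 1 FPKM in 3 samples kept every call among the members. The number of members lower was 1 in place of 2, with Far1 lost, with no filter, with the replicate block and without both knockout replicate 3 and control replicate 2; for enzymes and ABC transporters it was likewise 1 in each. Leaving out 1 sample gave 3336 to 5861 calls over all genes, 16 to 23 members higher and 1 to 2 lower, 6 to 9 peroxins higher and 0 lower, and 10 to 14 enzymes and ABC transporters higher and 1 to 2 lower. The medians then ranged from 0.50 to 0.64 for peroxins and from 0.56 to 0.69 for enzymes and ABC transporters. Limma-voom on the recovered reads called 24 members higher and 2 lower. Deviations from the group means correlated at -0.237, 0.0305 and -0.179 for equal replicate numbers and at -0.0833 to 0.235 for unequal ones. With 3 samples a group these values cannot show whether the samples were paired. With the replicate block 20 members were higher and 1 lower, the calls of Abcd3, Pex10, Acaa1a and Far1 being lost, and 4581 genes were called in all. The planned edgeR fit applied only to tables of counts and was not run. With 3 samples a group, small differences such as those of Pex2, Pex14 and Acox3 did not pass the test. The parts of sample spread and of depth in this were not tested. The cause of the changes between settings was not tested.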

Other observations

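The nuclear receptors that act on peroxisomal genes were measured in the same samples. Pparg, the master regulator of adipocytes, was at 43.1, 36.1 and 32.9 FPKM in control and 61.3, 57.6 and 93.0 FPKM in knockout samples, a log2 fold change of 0.89 ± 0.20 (limma adjusted p = 0.0132). Its partners Rxrg and Rxra rose by 1.18 ± 0.22 and 0.45 ± 0.10 (limma adjusted p = 0.00826 and 0.0119). Ppara, the receptor through which peroxisome proliferators act, was near the filter at 0.298 to 0.954 FPKM in control and 0.736 to 1.92 FPKM in knockout samples, and its groups overlapped (limma adjusted p = 0.0726). Of the 12 tested genes of that list, which also holds coactivators and corepressors, 5 rose and none fell, with a median of 0.22; against this, 21.9% of all tested genes rose.

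Mitochondrial β-oxidation, which finishes the chains that peroxisomes shorten, gave 15 genes higher and 1 lower of 17 tested, with a median of 0.73, against 21.9% and 21.6% of all tested genes. Etfb, Cpt2, Acadm and Decr1 rose by 0.67 ± 0.09, 0.90 ± 0.13, 0.82 ± 0.13 and 0.84 ± 0.13 (limma adjusted p 0.00411 to 0.00557). The one that fell was Cpt1a, the entry step for long chains, named after its values were seen, from 63.5, 69.7 and 65.5 FPKM to 49.0, 47.4 and 34.8 FPKM (-0.61 ± 0.14, limma adjusted p = 0.0137). The part of adipocyte and macrophage content in these values was not tested.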
